A study of Mus musculus with 6 samples.

Results

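Toll-like receptors are the sensors of microbial products and of some host molecules on macrophages, dendritic cells, neutrophils, B cells and epithelial cells. Members at the cell surface bind lipoproteins, lipopolysaccharide or flagellin, and members in endosomes bind nucleic acids. Engaged receptors recruit MyD88 or TRIF, which lead to NF-κB and interferon regulatory factors and to the transcription of inflammatory cytokines. The transcripts of 10 receptors, Tlr1 to Tlr9 and Tlr13, were taken by gene symbol from a table of 21720 symbols. All 10 were present in the table and all 10 passed the filter on low counts, which left 14963 genes to test. The receptors were not chosen for their values, although earlier results of these data were known when they were chosen.

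H22, a mouse hepatocellular carcinoma line labelled WT, was grown under the skin of young adult female BALB/c mice, and RNA was taken from the whole tumours. The control group was given 0.5% carboxymethyl cellulose sodium by gavage and the luteolin group luteolin, a flavonoid of plants, at 200 mg/kg. Both were dosed in 0.2 mL a day for 21 days. According to the labels, dosing began once tumours measured about 50 mm3. Each group gave 3 libraries, and nothing in the labels says that each came from its own mouse, so p values measure the spread between these libraries, which may be technical. Values of single libraries are given below in the order of replicates 1, 2 and 3.

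Total counts ranged from 61081637 to 80442954 per library. Several features of the libraries bear on the receptors. Markers of skin keratinocytes summed to 8902 CPM (counts scaled to a common library total) in luteolin replicate 2 and 393 in luteolin replicate 1, against 13.7 to 19.9 in the other 4 libraries. The sum hides a difference in luteolin replicate 3. In 6 of the 8 tested markers every luteolin library lay above every control library, against 15.9% of all tested genes. Several of these had no counts in any control library and passed the filter only through the luteolin libraries, so their separation followed from the filter. They had 20 to 303 counts in luteolin replicate 3. Another tested marker had 320 and 281 counts in luteolin replicates 1 and 3, below the 603 to 957 counts of the controls. It had 4451 counts in luteolin replicate 2. A difference in skin content between the groups as a whole was not tested, nor was the part of skin in the receptor levels. The hepatoma markers Afp and Krt18 were present in all libraries, from 32.7 to 66.7 and from 193 to 266 CPM, whereas the hepatocyte factor Hnf4a lay at 0 to 20 counts. Over the 14635 tested genes of known base composition, the deviation of each library from the average library was correlated with GC content, with a Spearman coefficient from -0.52 in control replicate 3 to 0.42 in control replicate 1 and 0.43 in luteolin replicate 2. These coefficients run across genes, which are not independent replicates. The summed level of 12 macrophage markers was 1983 to 2298 CPM in the control libraries and 2608 to 3852 CPM in the luteolin libraries.

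To examine the expression of the receptors after luteolin treatment, estimated counts were compared between the groups with edgeR's quasi-likelihood test over all tested genes. Tlr2 and Tlr9 were up-regulated at the threshold of the study, which asks for a fold change over 2 and an unadjusted p under 0.05. These are 2 of 10 receptors, and 11.3% of all tested genes passed in the same direction. With DESeq2, the tool the paper names, 1 receptor passed this threshold, Tlr9, as did 11.3% of all genes. Tlr2 then fell short of it with a log2 fold change of 0.994. No receptor was down-regulated (0 of 10, against 1.52% of all genes). At a Benjamini-Hochberg adjusted p under 0.05 from edgeR, 0 receptors were higher and 0 lower, against 1.34% and 0.187% of all genes, while 3 receptors (Tlr1, Tlr2 and Tlr9) had an unadjusted p under 0.05, against 20.5% of all genes. DESeq2 called 2 receptors higher at that adjusted threshold, where it called 8.67% of all genes higher. The voom method of limma with sample quality weights called 4 receptors higher and 12.6% of all genes. In 4 of 10 receptors (Tlr1, Tlr2, Tlr6 and Tlr9) every luteolin library lay above every control library, and 15.9% of all tested genes did so. In 0 of 10 every luteolin library lay below every control library, as in 12.8% of all tested genes. The fitted change was above 0 for 9 of 10 receptors and for 49.3% of all genes. Their median log2 fold change was 0.66. In bulk tumour RNA, more cells that carry a receptor and more transcript per cell cannot be told apart.

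**Figure D1:**
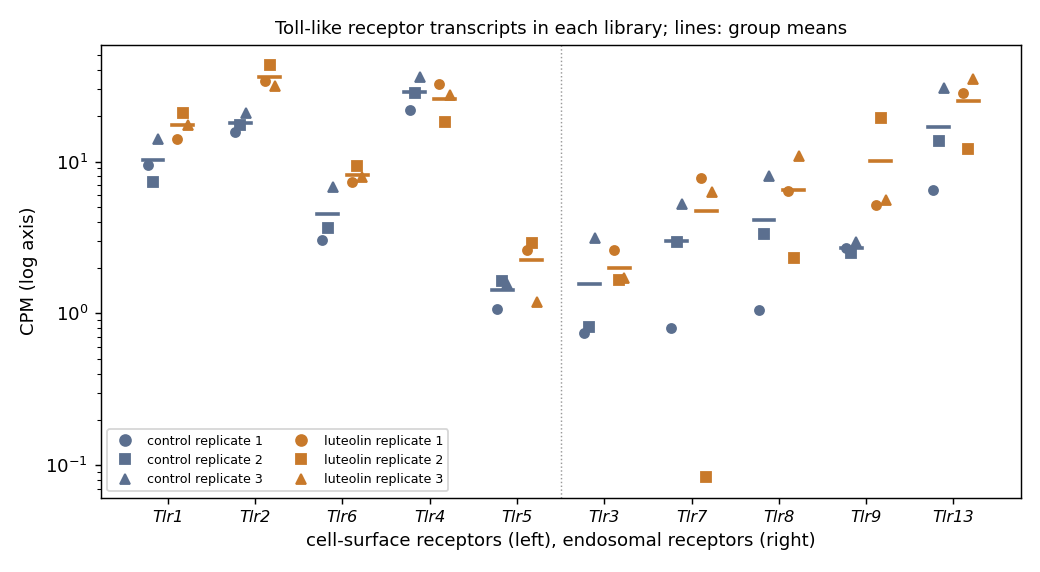
CPM of each receptor on a log axis in the 3 control and 3 luteolin libraries, with group means as lines and the cell-surface receptors to the left of the dotted line. Tlr2 lies between 15.7 and 20.9 CPM in the control libraries and between 31.4 and 43.05 in the luteolin libraries, and Tlr7 falls to 0.0838 CPM in luteolin replicate 2.

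Tlr2, the cell-surface receptor for bacterial lipoproteins, had 15.7, 17.3 and 20.9 CPM in the control libraries. It had 33.9, 43.05 and 31.4 CPM after luteolin. The groups did not overlap, and the spread within each group was smaller than the gap between the means of 17.95 ± 2.68 and 36.1 ± 6.15 CPM (SD, n = 3 each). The log2 fold change was 1.01 (standard error 0.21, 95% interval 0.52 to 1.5, edgeR unadjusted p = 0.00187 and adjusted p = 0.0693). This change lies just past the fold threshold. It was 0.89 without control replicate 1, 0.96 without control replicate 2 and 0.88 without luteolin replicate 2, each short of the threshold with an unadjusted p of 0.00981 or less in edgeR. With offsets for GC content and gene length it was 0.74, and the adjusted p of edgeR was then 0.0417. These offsets moved the median log2 fold change of all genes from -0.01 to -0.23, so that values with offsets stand against a lower median.

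The promoter of Tlr2 is shown because this receptor had the smallest p of the 10. The window runs from 250 bases before to 50 bases after the start of the gene in RefSeq (GRCm38.p6, chr3:83841559-83841858, minus strand, printed 5′ to 3′ along the gene). Capitals mark matches to the κB consensus, the binding motif of NF-κB, searched on both strands. The first capital run holds 2 overlapping matches and the second holds 1.
Tlr2 promoter: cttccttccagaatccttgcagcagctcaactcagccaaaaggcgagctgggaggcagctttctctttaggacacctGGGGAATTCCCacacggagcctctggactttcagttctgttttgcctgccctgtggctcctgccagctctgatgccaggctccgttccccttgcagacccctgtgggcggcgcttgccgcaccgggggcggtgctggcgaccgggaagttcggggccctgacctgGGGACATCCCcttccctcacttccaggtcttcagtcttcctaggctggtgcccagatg
Matches to this motif occurred in 4.51% of all 32851 promoter windows of this length. Among the 8 receptors with a window in the table, Tlr3 was the other one with a κB match. A match is a description of these letters and not a measured binding site.

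Tlr1 and Tlr6, which pair with Tlr2 to bind triacylated and diacylated lipopeptides, are neighbouring genes on chromosome 5. Tlr1 had 9.49, 7.34 and 14.05 CPM in the controls and 14.07, 20.99 and 17.3 CPM after luteolin. The highest control value and the lowest luteolin value were nearly equal. Tlr6 had 3.03, 3.68 and 6.79 CPM against 7.33, 9.34 and 7.90 CPM in the same order. Its lowest luteolin library also lay only slightly above control replicate 3. The log2 fold changes were 0.76 for Tlr1 (standard error 0.31, adjusted p = 0.229 in edgeR) and 0.86 for Tlr6 (standard error 0.38, adjusted p = 0.263 in edgeR), both under the fold threshold. Without control replicate 3 they were 1.05 and 1.28, and both receptors then passed the study's threshold.

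The ratios between the pairing partners overlapped between the groups. The log2 ratio of Tlr2 to Tlr6 was 2.07 ± 0.39 without and 2.13 ± 0.12 with luteolin (SD, n = 3 each), a difference of 0.06 (p = 1 in an exact two-sided permutation test). The log2 ratio of Tlr2 to Tlr1 differed by 0.21 between the groups (exact permutation p = 0.4), and that of Tlr1 to Tlr6 by -0.15 (exact permutation p = 0.8). These ratios are among 6 compared after the values had been seen, and 3 libraries against 3 cannot give an exact p below 0.1, so that no ratio could pass a correction. Tlr1 and Tlr6 share sequence. Of the 75-base windows of the longest transcript, 11.5% of those of Tlr1 occurred in Tlr6 and 9.44% of those of Tlr6 in Tlr1, and reads from these stretches could be assigned to either gene.

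Tlr4, the receptor for lipopolysaccharide, passed the test in neither direction. Its control libraries had 22.0, 28.4 and 35.8 CPM and its luteolin libraries 32.4, 18.2 and 27.3 CPM. The groups overlapped, with luteolin replicate 2 lowest of all 6 libraries. The log2 fold change was -0.15 with a 95% interval from -0.81 to 0.52 (adjusted p = 0.827 in edgeR), an interval that leaves out a doubling. It turned to 0.075 without luteolin replicate 2 and to 0.04 without control replicate 3. The log2 ratio of Tlr2 to Tlr4 was -0.49, -0.71 and -0.78 in the controls and 0.06, 1.24 and 0.20 after luteolin. In CPM, without allowance for length, Tlr4 was the higher of the pair in every control library and Tlr2 in every luteolin library. The ratio differed by 1.16 between the groups (exact two-sided permutation p = 0.1, the smallest that 3 libraries against 3 allow).

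Tlr5, the receptor for flagellin, was scarce. It was measured at 1.07, 1.64 and 1.55 CPM in the controls and at 2.61, 2.90 and 1.19 CPM after luteolin. Luteolin replicates 1 and 2 lay above the controls and luteolin replicate 3 among them, and the log2 fold change of 0.65 had an adjusted p of 0.514 in edgeR.

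**Figure D2:**
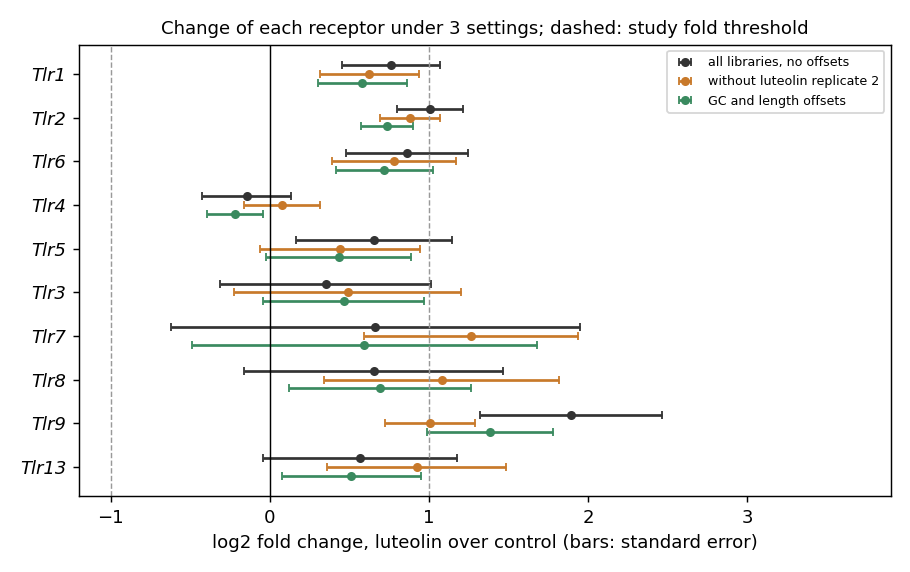
Log2 fold change of luteolin over control with its standard error for each receptor, from all libraries, without luteolin replicate 2, and with offsets for GC content and gene length. Tlr9 moves from 1.89 to 1.01 without luteolin replicate 2, while Tlr2 stays between 0.74 and 1.01 and Tlr4 between -0.22 and 0.075.

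Among the endosomal receptors, Tlr9, which binds unmethylated CpG DNA, was up-regulated at the study's threshold. The control libraries had 2.69, 2.502 and 2.93 CPM, a log2 range of 0.23 that was the smallest control range of any receptor. The luteolin libraries had 5.21, 19.4 and 5.54 CPM. All 3 luteolin libraries lay above the controls, and luteolin replicate 2 lay far above the others. The log2 fold change was 1.89 (standard error 0.57, 95% interval 0.54 to 3.25, unadjusted p = 0.013 and adjusted p = 0.141 in edgeR). Without luteolin replicate 2 it was 1.01 (unadjusted p = 0.0104, adjusted p = 0.142 in edgeR), close to a doubling. With the GC and length offsets it was 1.38, and 0.90 when luteolin replicate 2 was also left out. B cells carry Tlr9, and 8 B cell markers summed to 3.25 to 5.28 CPM in the control libraries and to 6.79, 29.7 and 10.5 CPM in the luteolin libraries. Of the 6 B cell markers tested, 2 were up-regulated at the study's threshold and 4 were not, against 11.3% of all tested genes up-regulated. The 2 were Cd79a and Cd79b, the signalling chains of the B-cell receptor. The groups of Cd79a overlapped, with luteolin replicate 1 at 2.37 CPM and control replicate 2 at 2.49 CPM. Cr2 and Fcer2a stayed under 1 CPM in all libraries. Dendritic cell markers were also highest in luteolin replicate 2. They summed to 67.4, 97.9 and 44.2 CPM in the luteolin libraries, against 39.95 to 46.8 CPM in the controls. The keratinocyte markers peaked in the same library, at 8902 CPM. The part of any of these cells in the level of Tlr9 was not tested.

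The promoter of Tlr9 is shown as that of the other called receptor (RefSeq, GRCm38.p6, chr9:106222348-106222647, plus strand, printed 5′ to 3′). Capitals mark GAGGAA, the core bound by PU.1 and other ETS factors, and TGANTCA, the AP-1 motif, both searched on both strands, and TTCCTC is the core on the opposite strand.
Tlr9 promoter: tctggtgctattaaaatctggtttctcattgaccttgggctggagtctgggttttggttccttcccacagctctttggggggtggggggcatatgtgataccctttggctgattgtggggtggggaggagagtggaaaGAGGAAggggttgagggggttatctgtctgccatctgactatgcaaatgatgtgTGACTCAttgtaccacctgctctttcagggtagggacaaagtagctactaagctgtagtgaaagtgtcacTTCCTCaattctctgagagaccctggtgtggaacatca
The GAGGAA core occurred 2 times here and in 28.3% of all windows, and the AP-1 motif 1 time and in 7.81% of all windows. The windows of Tlr1, Tlr8 and Tlr13 also held the GAGGAA core. The remaining motif searched, GAAANNGAA, the core of the interferon-stimulated response element, was found in a window of Tlr6 and in that of Tlr8, and in 8.56% of all windows.

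Tlr7 and Tlr8, neighbouring genes on the X chromosome whose products bind single-stranded RNA, and Tlr13, which binds bacterial ribosomal RNA, varied widely inside each group. Tlr13 was the most abundant, with 6.53, 13.7 and 30.7 CPM in the controls and 28.3, 12.2 and 35.0 CPM after luteolin. Tlr8 had 1.05, 3.35 and 8.02 CPM against 6.4, 2.32 and 10.8 CPM. Both receptors were lowest in control replicate 1 and highest in luteolin replicate 3, and the groups overlapped. Tlr7 had 0.801, 2.93 and 5.24 CPM against 7.84, 0.0838 and 6.31 CPM. Luteolin replicates 1 and 3 lay above all controls, and luteolin replicate 2 held only 7 counts, below every control.

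The log2 fold changes were 0.57 for Tlr13, 0.65 for Tlr8 and 0.66 for Tlr7, with adjusted p values of 0.667, 0.719 and 0.827 in edgeR. The 95% interval of Tlr7 ran from -2.38 to 3.70 and that of Tlr8 from -1.27 to 2.58, so a change of either sign or of several fold was not detectable at this spread. Without luteolin replicate 2 the values were 0.92 for Tlr13, 1.08 for Tlr8 and 1.27 for Tlr7, and none passed the threshold (adjusted p of 0.415 to 0.54 in edgeR). Without control replicate 3 they were 1.31, 1.56 and 1.34, again short of an unadjusted p of 0.05. Without control replicate 1 they were 0.18, 0.20 and 0.23.

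Tlr3, the sensor of double-stranded RNA, had 0.744, 0.819 and 3.13 CPM in the controls and 2.61, 1.66 and 1.72 CPM after luteolin. Control replicate 3 was the highest of all libraries, and the other controls were the lowest. The log2 fold change was 0.35 (adjusted p = 0.821 in edgeR), and 1.35 without control replicate 3, past the study's threshold (unadjusted p = 0.0457, adjusted p = 0.312 in edgeR). An antisense gene, Gm45542, overlaps 7.32% of the exonic length of Tlr3, and reads of the pair cannot be told apart unless strand was kept.

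The spread between control libraries was widest for 4 receptors of low GC content. Control replicate 3 exceeded control replicate 1 by 7.67 times for Tlr8, 6.54 times for Tlr7, 4.70 times for Tlr13 and 4.21 times for Tlr3, whose transcripts have a GC content of 40.1%, 41.0%, 43.6% and 40%. The ratio was 1.33 for Tlr2 (49.3% GC), 1.45 for Tlr5 (47.6% GC) and 1.09 for Tlr9 (56.2% GC). Tlr4 is an exception, with the lowest GC content of 39.4% and a ratio of 1.63. After a term for GC content and length was taken from each library, the log2 difference between these control libraries fell from 2.90 to 1.86 for Tlr8, from 2.67 to 1.69 for Tlr7 and from 0.70 to -0.36 for Tlr4. In the luteolin group the range of Tlr2 narrowed from 0.46 to 0.06 and that of Tlr4 from 0.83 to 0.29 on the log2 scale, whereas it widened from 0.58 to 0.68 for Tlr1 and from 0.35 to 0.42 for Tlr6. The control range of Tlr9 also widened, from 0.23 to 0.45. With these terms the groups did not overlap for Tlr2, Tlr6 and Tlr9, and they overlapped for Tlr1. Without the terms every luteolin library lay above every control library in 15.9% of all tested genes. That share was not counted with the terms, so the receptors cannot be set against it here. The part of base composition in the spread of Tlr7, Tlr8 and Tlr13 beyond these terms was not tested.

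**Figure D3:**
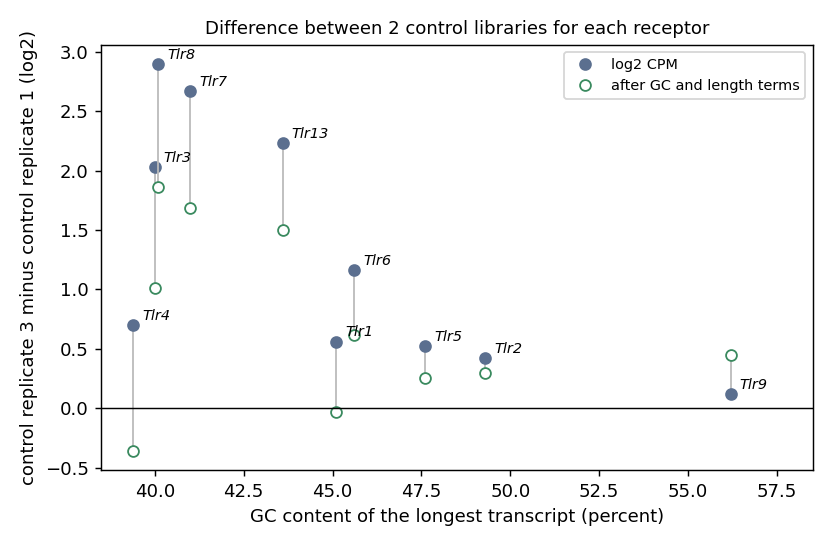
Log2 difference between control replicate 3 and control replicate 1 for each receptor against the GC content of its longest transcript, before (filled) and after (open) removal of the GC and length terms. Tlr8, Tlr7, Tlr13 and Tlr3 differ by 2.03 or more before and by 1.01 or more after, and Tlr2, Tlr5 and Tlr9 by 0.52 or less on both.

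Levels of different receptors were compared per kilobase of exon. In the control group Tlr2 was highest with 5.96 ± 0.89 CPM per kilobase, followed by Tlr4 with 5.16 ± 1.24, Tlr13 with 3.95 ± 2.89 and Tlr1 with 3.07 ± 1.02 (SD, n = 3 each). Neighbours in this order overlapped across libraries except that Tlr1 lay wholly above the next receptor, Tlr6, at 1.21 ± 0.539. Tlr8, Tlr9, Tlr7, Tlr3 and Tlr5 followed with means from 1.15 to 0.297. In the luteolin group Tlr2, at 12 ± 2.04 CPM per kilobase, stood wholly above the next receptor, Tlr13, at 5.85 ± 2.73. Tlr1 at 5.21 ± 1.03, Tlr4 at 4.67 ± 1.29 and Tlr9 at 2.89 ± 2.33 came next, and below Tlr2 all neighbours overlapped.

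To set the receptors beside a cell type that carries them, the log2 level of each was taken relative to the mean of 12 macrophage markers in the same library. Of the 12, 4 were up-regulated at the study's threshold, against 11.3% of all tested genes. Among them were Cd68, a lysosomal glycoprotein, Fcgr1, an Fc receptor, and Cd163, a scavenger receptor, named after their values were seen. The groups of Cd163 overlapped, with luteolin replicate 3 at 37.4 CPM and control replicate 3 at 37.7 CPM. None of the 12 had a fitted change below 0. Among the 2 most abundant, the change was 0.23 for Lyz2 and 0.80 for C1qa on the log2 scale. Relative to this list Tlr2 differed by 0.11 between the groups (exact two-sided permutation p = 0.5), Tlr6 by 0.04 (exact permutation p = 1) and Tlr1 by -0.10 (exact permutation p = 0.7). The sign for Tlr2 turned, to -0.06 relative to 6 pan-leukocyte markers and to -0.19 relative to Ptprc alone. Tlr4 had relative levels of -1.86, -1.50 and -1.30 in the controls and of -2.08, -3.33 and -2.42 after luteolin. Every luteolin library lay below every control library, with a difference of -1.06 (exact permutation p = 0.1, the smallest possible). The same held for 60.8% of all tested genes, since the mean log2 level of the markers was 0.90 higher in the luteolin group. The median difference over all tested genes was -0.91, and that of Tlr4 lay close to it. Without luteolin replicate 2 it was -0.70, relative to the pan-leukocyte markers -1.22, and with the GC and length terms removed -0.81. Tlr9 lay wholly above the controls, as did 4.57% of all tested genes, at -4.88, -4.99 and -4.90 against -4.71, -3.23 and -4.71, a difference of 0.70 (exact permutation p = 0.1) that was 0.21 without luteolin replicate 2. Relative to the pan-leukocyte markers it was 0.53, and the groups of Tlr9 then overlapped. For the other 8 receptors the groups overlapped. Over 10 receptors tested in this way, no p can pass a correction.

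**Figure D4:**
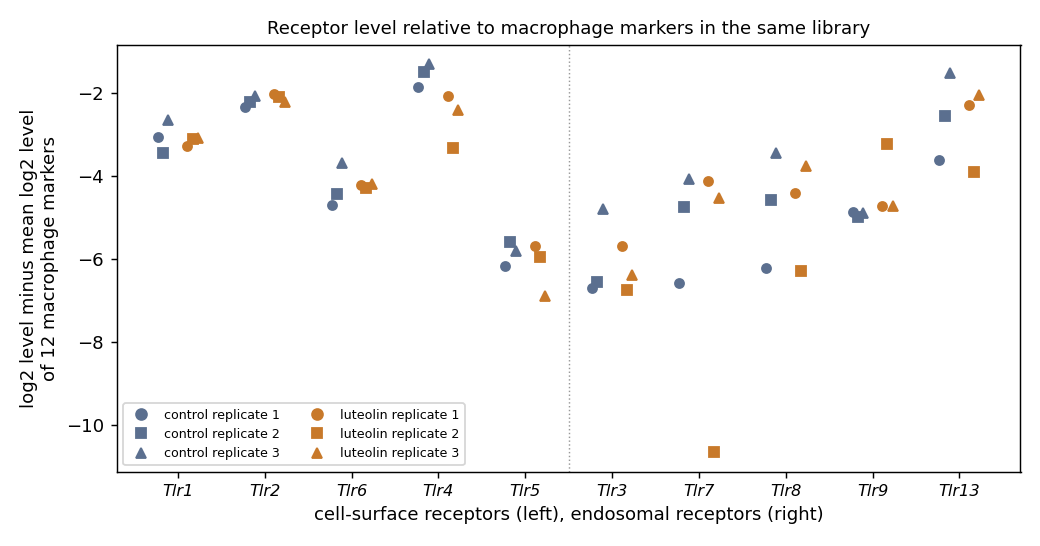
Log2 level of each receptor minus the mean log2 level of 12 macrophage markers in the same library, for the 3 control and 3 luteolin libraries. Tlr4 sits from -1.86 to -1.30 in the control group and from -3.33 to -2.08 in the luteolin group, while Tlr2 lies between -2.35 and -2.02 in all 6 libraries.

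Other cells that carry these receptors were examined by their markers. Neutrophil markers summed to 44.7 to 49.7 CPM in the control and 108 to 192 CPM in the luteolin libraries. Of the 7 tested, 4 were up-regulated at the study's threshold (Csf3r, Cxcr2, Ltf and Mmp8), against 11.3% of all tested genes. Ltf, at 0 in every control library, passed the filter only through the luteolin libraries, so its call is no support. The defining gene Ly6g stayed at 0 to 36 counts. Ngp, Camp and Stfa2l1 were also at 0 in every control library and were not tested. Dendritic cell markers summed to 39.95 to 46.8 CPM against 44.2 to 97.9 CPM. At the study's threshold 8 of 10 were up-regulated, against 11.3% of all tested genes. The share of these cells in the receptor levels was not tested.

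The receptors were then set beside the genes that work with them. The lists were written from general knowledge of the pathway, but with earlier results of these data known. Counts within them are therefore descriptions. Of the 10 co-receptors and chaperones 3 were up-regulated at the study's threshold, against 11.3% of all tested genes. Lbp, the plasma protein that carries lipopolysaccharide to CD14, had 6.70, 6.60 and 6.65 CPM in the controls and 80.5, 71.8 and 12.3 CPM after luteolin. Its log2 fold change was 3.05 (adjusted p = 0.0742 in edgeR). Cd14, the co-receptor of Tlr4 and Tlr2, rose from 17.98 ± 1.70 to 40.02 ± 12.75 CPM (log2 fold change 1.15), and Unc93b1, which carries the nucleic acid sensors to endosomes, from 48.2 ± 14.0 to 109 ± 62.6 CPM (log2 fold change 1.18, SD, n = 3 each). Ly96, which encodes MD-2, the lipopolysaccharide-binding partner of Tlr4, was listed at 0.129 to 0.726 CPM in all libraries. Slc15a4, a transporter needed for endosomal signalling, had a log2 change of 0.02.

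The cytoplasmic relay of the receptors mostly did not pass the test. Of 22 adaptors and kinases 3 were up-regulated, 13.6% against the 11.3% of all genes, and their median log2 fold change was 0.05. The 3 were Traf3, a ubiquitin ligase of the interferon branch (1.58), Pik3ap1, an adaptor that links the receptors to phosphoinositide 3-kinase (1.62), and Irf7, an interferon regulatory factor (1.67), the last named after its values were seen. Myd88, the adaptor used by nearly all of the receptors, had 42.3, 38.6 and 31.7 CPM in the controls and 39.7, 86.5 and 36.2 CPM after luteolin. Luteolin replicate 2 stood above and the others lay among the controls (log2 fold change 0.53, adjusted p = 0.461 in edgeR). Ticam1, which encodes TRIF, the adaptor of Tlr3 and Tlr4, had a change of -0.17 (95% interval -0.77 to 0.43), and Ikbke, a kinase upstream of Irf3, a change of 0.00 (95% interval -0.47 to 0.47).

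Negative regulators moved in part. Of 12 tested, 4 were up-regulated and 1 down-regulated at the study's threshold, against 11.3% and 1.52% of all tested genes. At an adjusted p under 0.05, which 1.34% of all genes reached in the upward direction, 2 of the up-regulated genes remained. These were Tnfaip3, the ubiquitin-editing enzyme A20, with 22.8, 23.4 and 21.5 CPM in the controls and 46.9, 50.2 and 42.3 CPM after luteolin, and Il1rl1, the interleukin-33 receptor ST2, with a log2 fold change of 2.68. Their adjusted p values were 0.0393 and 0.0331 in edgeR. Irak3, a kinase-dead relative of the IRAK kinases, and Socs1, an inhibitor of cytokine signalling, had log2 fold changes of 1.73 and 1.32. Sarm1, a TIR-domain protein, fell by 1.09 on the log2 scale. Tank, an adaptor of the TBK1 kinase, had a change of 0.14. Irak3, Socs1 and Sarm1 were named after their values were seen.

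Genes that receptor engagement is known to induce, which other stimuli induce as well, were mostly up-regulated. Of 21 tested, 15 were up-regulated and 0 down-regulated at the study's threshold, against 11.3% and 1.52% of all tested genes. Of the 15, 7 had an adjusted p under 0.05 in edgeR, against 1.34% of all genes called higher. The median log2 fold change of the 21 was 2.68. Nos2, the inducible nitric oxide synthase, had 5.27, 14.3 and 9.01 CPM in the controls and 149.6, 81.4 and 134 CPM after luteolin. The chemokine gene Ccl5 had a log2 fold change of 3.05 and an adjusted p of 0.0331 in edgeR, as had Nos2 with 3.68. Cxcl10, a chemokine of the interferon response, had a change of 0.14 (95% interval -0.52 to 0.79). Il23a, a cytokine subunit named after its values were seen, lay below every control in each luteolin library, with a log2 change of -0.84 that did not reach the fold threshold. Ifnb1, the interferon-β gene induced through TRIF, was at 0 counts in all 6 libraries, where a count of 0 allows up to 3 counts per library, or 12 where 1 read pair counts as 4 units.

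Of the 11 endosomal nucleases and proteases, which trim nucleic acids and process the receptors, 4 were up-regulated at the study's threshold, against 11.3% of all tested genes. In 9 every luteolin library lay above every control library, against 15.9% of all tested genes. Ctsk, a cathepsin, rose from 15.5 ± 2.53 to 68.4 ± 12.2 CPM (SD, n = 3 each), with a log2 fold change of 2.14 and an adjusted p of 0.0306 in edgeR. The others were Ctss, a cathepsin (1.16), Pld4, an endolysosomal exonuclease (1.21), and Dnase1l3, a secreted DNase (2.24), named after their values were seen. Lgmn, the asparagine endopeptidase, had a change of 0.69, under the fold threshold, and Dnase2a, the lysosomal DNase, of -0.11. Host molecules proposed as ligands of Tlr2 or Tlr4 were up-regulated in 5 of 8 cases, against 11.3% of all tested genes. Of the 5, 4 had an adjusted p under 0.05 in edgeR, against 1.34% of all genes called higher. S100a9 and S100a8, the calprotectin subunits of neutrophils and monocytes, had log2 fold changes of 4.70 and 4.44, and Vcan, a proteoglycan, of -0.27. The matrix genes Bgn (1.36), Dcn (3.84) and Tnc (2.11) made up the rest of the 5 and were named after their values were seen. Of 7 fibroblast markers 5 were also up-regulated at the study's threshold, against 11.3% of all tested genes. These markers summed to 1422 to 1607 CPM in the control and 2016 to 4781 CPM in the luteolin libraries. Their most abundant genes, the collagens Col3a1 and Col1a1, had log2 fold changes of 1.23 and 1.41, and the part of fibroblasts in these levels was not tested. Over the 7 pathway lists 34 of 86 tested genes were up-regulated and 1 was down-regulated at the study's threshold. The shares over all tested genes were 11.3% and 1.52%.

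**Figure D5:**
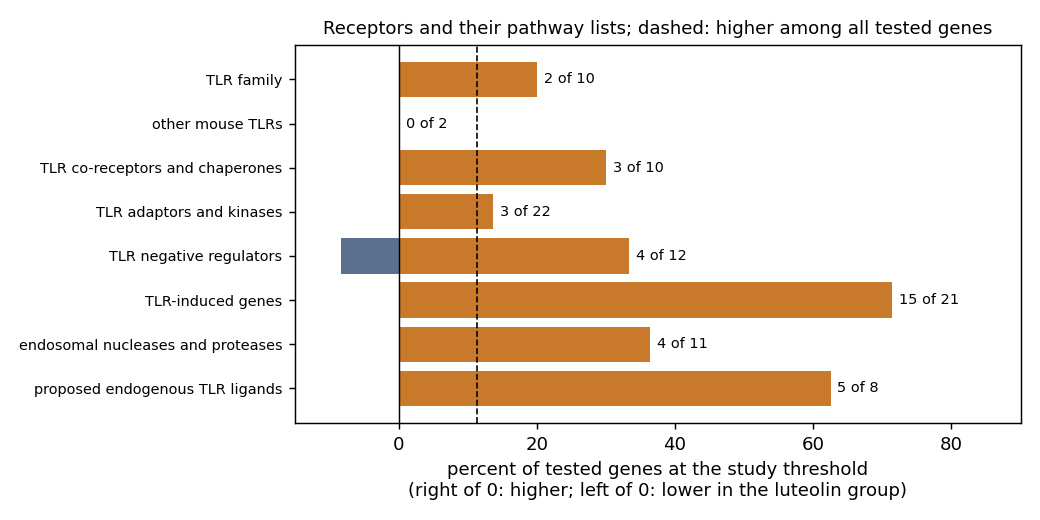
Percent of tested genes at the study's threshold in the receptor family and in 7 pathway lists, higher to the right of 0 and lower to the left, with the number of up-regulated genes beside each bar and the 11.3% of all tested genes as a dashed line. The receptors (2 of 10) and the adaptors and kinases (3 of 22) lie near that line, and the induced genes (15 of 21) lie farthest from it.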

How the data were processed

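RNA-seq of 6 H22 tumour libraries was used, and 0 columns of the table were left out. The authors deposited whole-number estimated counts per gene symbol, not scaled between libraries. Of the values from 1 to 40, 44.8% are multiples of 4, so that 1 unit need not be 1 read. The submitters' processing notes list bcl2fastq 2.0, HISAT2, StringTie, DESeq2 and the builds rn6 and mm39, without roles. The counting options and the use of strand are not given in the sources used here. The paper names Trizol and a TruSeq kit, and the labels an RNeasy and a SMARTer kit.

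The groups were compared by the quasi-likelihood test of edgeR 4.0.16 under R 4.3.3, after TMM normalization and filterByExpr and with no covariates, and p values were two-sided and adjusted over 14963 genes. CPM are scaled to the TMM-normalized total, and log2 levels have a prior count of 2. Intervals are at 95%. Single values were compared by exact permutation tests over the libraries. Exon lengths, GC content and transcripts came from GENCODE M21 and promoter windows from RefSeq, both on GRCm38, a different build from those listed, so that no position was read for the deposited table. Promoter windows were found for 8 receptors.

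The receptors and gene lists were chosen with earlier results of these data known. The rule allowed the receptors, Tlr11 and Tlr12, Cd14, Ly96, Myd88, Ticam1 and Unc93b1, the 2 genes with the smallest p and the 1 with the largest p in each pathway list, the 2 most abundant genes of each marker list, and the genes nearest in profile. Genes outside it are named where a count of 5 or fewer needs them. A marker gene is not reported here by name.

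The alternatives were DESeq2 1.42.0, voom of limma 3.58.1, other normalizations and filters, values divided by 4, a replicate block and each library left out. Offsets for GC content and length (splines with 4 and 3 degrees of freedom, 14635 genes) were added after the data had been seen. The pipeline was tested on simulated data.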

Additional observations from a re-analysis of the deposited data

How the results depend on the processing

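The count of receptors up-regulated at the study's threshold, 2, was 1 with DESeq2, with RLE normalization, with no filter on low counts and with the GC and length offsets, alone or with the replicate block, and the 1 was then Tlr9. Without luteolin replicate 2 and with the offsets it was 1, Tlr7, and with voom it was 4 (Tlr3, Tlr8, Tlr9 and Tlr13). With 1 library left out it ranged from 1 to 5, the 5 without control replicate 3. The shares of all genes up-regulated at this threshold were 11.3% with DESeq2, 11.7% with voom and 11.1% with RLE normalization. They were 10.9% with no filter, 9.44% with the offsets and 8.65% with the offsets and the block. Without luteolin replicate 2 and with the offsets the share was 6.45%. With 1 library left out it was 7.52% to 13.6%, and 9.57% without control replicate 3. At an adjusted p under 0.05 the count was 2 with DESeq2 (Tlr2 and Tlr9) and 4 with voom (Tlr1, Tlr2, Tlr6 and Tlr9), against 0. It was 1 (Tlr2) with the GC and length offsets, with or without luteolin replicate 2. It was 0 with the offsets and the replicate block, where the adjusted p of Tlr2 in edgeR was 0.0877. The shares of all genes called higher at an adjusted p under 0.05 were 8.67% with DESeq2, 12.6% with voom and 3.79% with the offsets. They were 4.16% with the offsets and without luteolin replicate 2, and 3.97% with the offsets and the block. In all 17 alternatives 0 receptors were down-regulated at the study's threshold. The pathway lists had 26 to 36 up-regulated genes in these alternatives, against 34, and their count of down-regulated genes was 0 with voom and 2 with the GC and length offsets, with and without the replicate block, against 1. Tlr4 turned to 0.10 with voom and ranged from -0.338 to 0.075 with 1 library left out, above 0 without control replicate 3 or luteolin replicate 2. Tlr7 turned to -0.045 with the replicate block and to -0.098 with the GC and length offsets and the block, and it could not be tested with at least 10 counts in every library. The cause was not tested. Relative to the pan-leukocyte list or to Ptprc alone, 0 receptors lay wholly above the controls, against 1, and relative to Ptprc 2 lay wholly below them, against 1. With 1 library left out, 1 to 2 lay wholly above and 1 to 2 wholly below. The shares of all tested genes were not counted for these settings. With all libraries and the macrophage markers they were 4.57% above and 60.8% below.

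The labels do not say whether the replicate numbers pair the libraries. Same-numbered libraries had correlations of their deviations of -0.20, -0.09 and 0.06. These run across genes and cannot show whether the libraries were paired. With the replicate block, 2 receptors were up-regulated at the study's threshold, as were 8.64% of all genes, and the pathway lists had 33. Counts over all genes of up-regulation at that threshold went from 955 to 2104, against 1687, and at an adjusted p under 0.05 from 0 to 1886, against 200. That 0 came from edgeR without control replicate 1, 2 or 3 or without luteolin replicate 1, where 1907 to 2462 genes had an unadjusted p under 0.05.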

Other observations

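The remaining mouse receptors of the family were also in the table. Tlr11, which binds profilin of parasites, had 13, 57 and 33 counts in control replicates 1 to 3 and 81, 128 and 32 counts in luteolin replicates 1 to 3, with a log2 fold change of 1.09 (adjusted p = 0.475 in edgeR). Tlr12, its partner, had 234, 120 and 152 counts against 167, 420 and 336 counts, with a log2 fold change of 0.78 (adjusted p = 0.36 in edgeR). Luteolin replicate 3 lay among the controls for Tlr11 and luteolin replicate 1 for Tlr12.

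Profiles over the 6 libraries were compared by the root mean square difference of log2 levels, each centred on its own mean. Among the receptors, Tlr1 and Tlr6 were nearest to each other (0.23), as were Tlr8 and Tlr13 (0.297), and Tlr6 was also the nearest receptor to Tlr2 (0.241). Tlr7 was far from all others, the nearest being Tlr8 at 1.55. Over all tested genes the nearest profile was that of Rnf130 for Tlr2 (0.0527), Rras2 for Tlr4 (0.0475), Sspn for Tlr1 (0.136), Inpp4b for Tlr6 (0.113), Pde4b for Tlr5 (0.137), Smarca2 for Tlr9 (0.126), Suz12 for Tlr8 (0.19), Zfp715 for Tlr13 (0.157), Trim30d for Tlr3 (0.219) and Gm17655 for Tlr7 (0.463). The mean profile of the 10 receptors was nearest to Hif1a (0.0833), Ifi204 (0.0869) and Rdh14 (0.0878). These are descriptions over 6 libraries that share a group difference, and with 14963 genes some profile lies near any other.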
